A study of Mus musculus with 6 samples.

Results

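Serpins are proteins of one shared fold, and the family is described here in the mouse kidney after ischaemia/reperfusion injury, a procedure that stops and then restores renal blood flow. Members were the array's non-control probes whose gene name begins with Serpin, a clade letter from a to i and a digit, which gave 78 of 41174 probes and 59 of 27343 genes. Clade A held 22 genes and clade B 26, clade E had 3, clades F and I had 2 each, and clades C, D, G and H had 1 each. Of the 59 genes, 34 had a brightest probe that stood well above background on 2 or more of the 6 arrays and were tested with the other genes of the array (19611 tested in all), 7 reached that level on 1 array, and 18 on none.

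Kidney RNA of 6 samples was hybridised to 6 single-colour arrays. Wild type mice provided 2 sham-operated arrays and 2 arrays of kidneys with renal ischaemia/reperfusion injury, and mice with Gpr97 deficiency provided 1 sham-operated and 1 injured array. All are labelled male. No source used here states age, strain, which allele underlies the deficiency, how long ischaemia lasted or when kidneys were taken. Each array title carries its own number, which the labels do not explain, and nothing in them says that arrays of a group come from separate mice. The p-values therefore reflect the spread among these 6 samples, which may be technical except where sex-linked genes set arrays of a group apart (below).

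Each inhibitory serpin carries an exposed loop that a protease cuts, after which the serpin snaps into another shape and traps the enzyme in an inactive complex. Clade A serpins are mostly secreted plasma proteins made by the liver (alpha-1-antitrypsins, antichymotrypsin-like proteins, hormone carriers), clade B serpins lack a classical signal peptide and guard the inside of cells, and the smaller clades include the main regulators of clotting, of plasmin formation and of complement. A few members inhibit no protease, among them the collagen chaperone Serpinh1 and the hormone carriers Serpina6 and Serpina7.

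The family sits in clusters of neighbouring copies. In mm9, the build of the probe positions, 21 of the 22 clade A genes lay on chromosome 12 and Serpina7 on the X chromosome, while clade B was split into 12 genes on chromosome 1 and 14 on chromosome 13. The copies are close enough that some probes do not tell them apart: by accession, the Serpina1c probe also stands for Serpina1b, Serpina1d and Serpina1e, the Serpina1d probe for Serpina1c and Serpina1e, and probes of Serpinb3a, Serpinb3b, Serpinb3c, Serpinb9f and Serpinb9g likewise list 2 genes. The signal of such a probe is therefore that of the group.

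The RefSeq promoter table (GRCm38.p6) held 49 of the 59 members. Its 250 bases upstream of the start are printed for the alpha-1-antitrypsin copies, to show how alike they are, and for 3 members that the results below return to. Capitals mark TGANTCA (the letters of an AP-1 site) in Serpina1b (chr12:103738190-103738439, minus strand), Serpina1c (chr12:103904951-103905200, minus strand), Serpina1d (chr12:103773634-103773883, minus strand) and Serpinb8 (chr1:107589756-107590005, plus strand), TTCNNNGAA (a STAT site) at one of the 2 starts of Serpinb6a (chr13:34002795-34003044, minus strand), and ACGTG on the opposite strand (a hypoxia response element) in Serpinh1 (chr7:99353240-99353489, minus strand).
Serpina1b: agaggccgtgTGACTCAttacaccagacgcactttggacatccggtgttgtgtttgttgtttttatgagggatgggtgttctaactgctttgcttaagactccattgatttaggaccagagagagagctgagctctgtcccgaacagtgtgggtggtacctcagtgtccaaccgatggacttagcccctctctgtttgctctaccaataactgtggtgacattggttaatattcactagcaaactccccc
Serpina1c: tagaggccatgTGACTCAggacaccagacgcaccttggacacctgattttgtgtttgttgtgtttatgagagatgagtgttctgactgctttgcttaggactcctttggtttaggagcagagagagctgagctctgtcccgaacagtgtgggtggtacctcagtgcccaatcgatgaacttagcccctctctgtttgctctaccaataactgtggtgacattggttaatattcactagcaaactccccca
Serpina1d: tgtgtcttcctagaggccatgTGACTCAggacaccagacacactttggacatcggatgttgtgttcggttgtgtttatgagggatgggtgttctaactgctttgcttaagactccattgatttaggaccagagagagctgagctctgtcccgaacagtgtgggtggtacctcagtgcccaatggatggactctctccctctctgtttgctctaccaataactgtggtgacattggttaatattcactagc
Serpinb6a: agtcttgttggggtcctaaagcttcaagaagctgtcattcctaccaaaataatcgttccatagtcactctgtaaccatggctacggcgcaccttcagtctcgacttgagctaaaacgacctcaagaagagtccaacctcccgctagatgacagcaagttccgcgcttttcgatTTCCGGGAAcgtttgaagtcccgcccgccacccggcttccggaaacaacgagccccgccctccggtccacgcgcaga
Serpinb8: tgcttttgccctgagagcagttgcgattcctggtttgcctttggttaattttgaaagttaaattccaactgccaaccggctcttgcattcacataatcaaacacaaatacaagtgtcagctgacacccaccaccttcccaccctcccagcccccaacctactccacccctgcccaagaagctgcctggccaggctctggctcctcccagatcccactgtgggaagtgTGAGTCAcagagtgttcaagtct
Serpinh1: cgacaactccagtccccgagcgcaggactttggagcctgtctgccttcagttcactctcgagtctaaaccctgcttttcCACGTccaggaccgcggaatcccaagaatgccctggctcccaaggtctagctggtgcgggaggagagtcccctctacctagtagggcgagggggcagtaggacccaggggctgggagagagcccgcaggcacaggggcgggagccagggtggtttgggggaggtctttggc

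Aligned end to end, the upstream windows of Serpina1b and Serpina1c were identical at 90.9% of positions, those of Serpina1b and Serpina1d at 85.1% and those of Serpina1c and Serpina1d at 84.3%, against 47.6% for Serpina1b and the more distant Serpina1f. Each of the 3 close copies held TGACTCA near the far end of its window. Over the 58 start windows of the members, TGANTCA was found in 19% and TTCNNNGAA in 17.2%, against 6.75% and 7.02% of all 32851 windows of that length in the table. Both strands were searched. The windows are not independent: Serpina11, Serpina3f and Serpinb2 each have 1 site counted in 2 overlapping windows, and the 3 close Serpina1 copies each add a window with TGANTCA. Within clade B, 7 of 11 genes on chromosome 1 with a window held TGANTCA and 0 of 13 on chromosome 13 did. Of the other letters searched, ACGTG was in 8.62% of member windows and 16.6% of all, CCAAT in 29.3% and 33.8%, and CACGTG, which contains ACGTG, in 0% and 6.02%. A heat shock element and an HNF1 site were in 0% of member windows and in 0.466% and 0.00913% of all. These are matches of letters only.

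Between 63% and 71% of all probes were well above background on an array, and none was saturated. Gpr97 is the older name of Adgrg3, and its brighter probe read 0.20 and 0.02 on the wild-type sham arrays, 1.06 and 1.18 on the wild-type injured arrays, and, for the Gpr97-deficient mice, −5.38 after sham surgery and −5.75 after injury, in log2 units above or below the array's own 75th percentile, the scale of every level below. Proximal tubule markers were well above background on every array, 7 of 7. Wild-type injured array 1, though labelled male, read 4.05 for Xist and −7.43 for the Y-linked Ddx3y. The other 5 arrays read −5.45 or lower for Xist, and wild-type injured array 2 read 1.19 for Ddx3y. The 2 wild-type injured arrays therefore do not come from the same mouse. Results are also given without wild-type injured array 1. The arrays of wild-type sham 1 and wild-type injury 2 shared slide 1, and the other 4 arrays slide 2, which gives 3 within-slide pairs, each injured minus sham: wild type on slide 1, wild type on slide 2 and Gpr97-deficient on slide 2. The dimmest signal well above background was −4.48 and −4.47 on the slide 1 arrays and from −5.69 to −5.47 on the slide 2 arrays. A dim gene can therefore pass background on slide 2 at a signal that does not pass on slide 1.

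No gene of the array passed a Benjamini-Hochberg adjusted p of 0.05 in limma's test of injury over both genotypes (3 injured against 3 sham arrays), and no Serpin gene did. At an unadjusted p under 0.05, 9 of the 34 tested Serpin genes stood out, 8 higher and 1 lower after injury, where 12.3% of all tested genes did so (5.56% higher and 6.72% lower). The 8 included Serpina10, Serpinh1, Serpina6, Serpinb6b, Serpinb6a, Serpina3m and Serpinb1a, and the lower one was Serpinb9e; their adjusted p lay between 0.245 and 0.37. On the 3 injured arrays 11 Serpin genes read above all 3 sham arrays, an arrangement that 9.69% of all genes showed, and 2 (Serpinb3c and Serpinb9e) read below all of them, as 13.1% of all genes did. The 11 include Serpina6, which was tested through its injured arrays alone; among the 26 Serpin genes well above background on all 6 arrays, 8 read higher and 1 lower without overlap, where 1696 and 2257 of all 15831 such genes did. An exact permutation test of 3 arrays against 3 cannot go below p = 0.10. The share of all genes at an unadjusted p under 0.05 moved with the setting, and the Serpin count with it. With slide in the fit the Serpin count was 13 (17.7% of all genes), and without wild-type injured array 1 it was 12 (17.4%). After normexp background correction it was 5 (4.58%), Serpina10, Serpina3m, Serpinb6a and Serpinb6b among them.

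**Figure D1:**
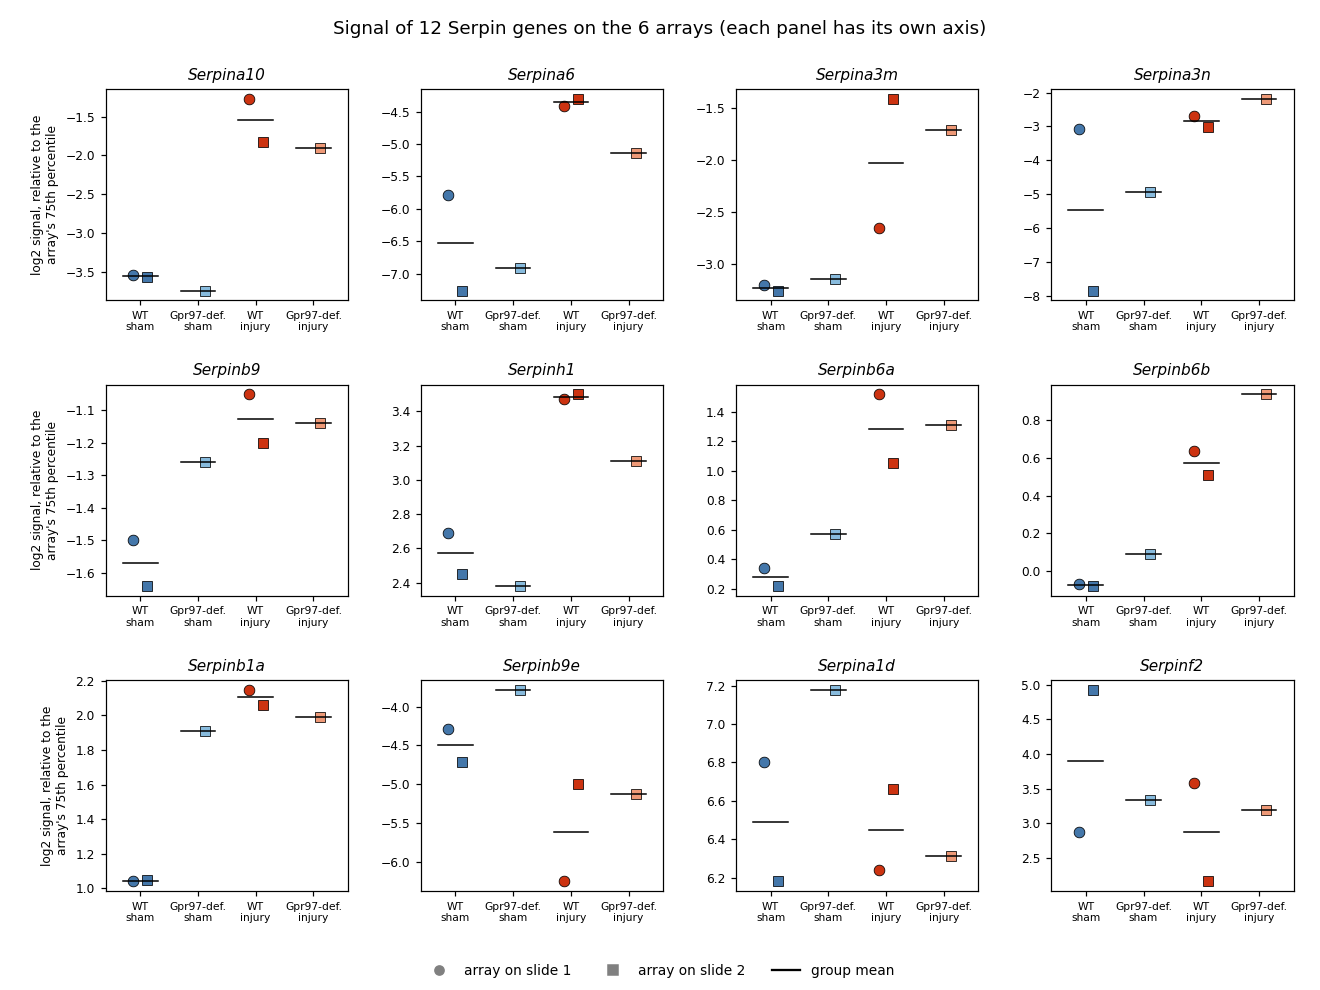
Log2 signal of 12 Serpin genes on the 6 arrays, relative to the array's 75th percentile, by group (WT, wild type; Gpr97-def., Gpr97-deficient); circles are arrays on slide 1, squares arrays on slide 2, and lines group means (a line through 1 point is that array). The 3 injured arrays of Serpina10 lie between −1.90 and −1.27 and the 3 sham arrays between −3.74 and −3.54, while Serpina1d and Serpinf2 overlap.

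Serpina10, the protein Z-dependent inhibitor of clotting factor Xa, had the lowest unadjusted p of the members. Its brighter probe (mm9 chr12:104853280-104853339) read −3.54, −3.56 and −3.74 on the sham arrays and −1.83, −1.27 and −1.90 on the injured arrays, the last of each being Gpr97-deficient. Injured arrays lay above sham arrays throughout, with an SD of 0.35 against 0.11 (n = 3 each). The change was 1.95 (SE 0.21; 3.86-fold; unadjusted p = 0.000212, limma adjusted p = 0.245), with 2.28, 1.72 and 1.84 in the 3 pairs. The dimmer probe (mm9 chr12:104866454-104866513), the one whose accession RefSeq gives to Serpina10, was well above background on all 3 injured arrays and on no sham array: it was at least 4.64-fold higher (means −3.04 and −6.66, limma over 29910 probes adjusted p = 0.114). Both probes gave the same direction in all 3 pairs.

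Serpina6, the plasma carrier of corticosteroids, was well above background on 2 of the 3 injured arrays and on no sham array. The injured array that did not pass, wild-type injured array 2, is on slide 1, where the limit was higher. Serpina6 read −4.30, −4.41 and −5.14 after injury and −5.78, −7.26 and −6.91 after sham surgery, without overlap, and was at least 1.55-fold higher (limma adjusted p = 0.263). Serpina3m and Serpina3n belong to the antichymotrypsin-like copies, and Serpina3n is a known acute phase gene. Serpina3m read −3.20, −3.25 and −3.14 on the sham arrays and −1.41, −2.65 and −1.71 on the injured arrays, a change of 1.27 (SE 0.35; 2.42-fold; adjusted p = 0.328) with 0.55 to 1.84 in the pairs. Its sham arrays were close together and its injured arrays were not.

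Serpina3n varied widely among sham arrays. They read −3.07 (wild type 1), −7.85 (wild type 2, not well above background) and −4.93 (Gpr97-deficient), and the injured arrays −3.01, −2.68 and −2.18. Injured and sham arrays did not overlap, but wild-type sham 1 lay just below the lowest injured array, and the change of 2.66 carried an SE of 1.24 (adjusted p = 0.466). The pair on slide 1 gave 0.39 and the Gpr97-deficient pair 2.75, and the wild-type pair on slide 2 was at least 6.3-fold higher, since its sham array was not above background. Leaving out 1 array at a time moved it between 1.31 and 4.04.

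The alpha-1-antitrypsins, inhibitors of neutrophil elastase, did not share this direction. Serpina1d read 6.80, 6.18 and 7.18 on the sham arrays and 6.66, 6.24 and 6.31 on the injured arrays, and the groups overlapped. The change was −0.32 (SE 0.30; adjusted p = 0.705), and for Serpina1b, Serpina1c and Serpina1f it was −0.25, −0.40 and −0.65 (SE 0.36, 0.34 and 0.34); for Serpina1b it was 0.10 without either Gpr97-deficient array. In all 4 the wild-type pair on slide 1 and the Gpr97-deficient pair were lower after injury, from −1.22 to −0.57. The wild-type pair on slide 2 was higher, from 0.27 to 0.76, and its injured array was wild-type injured array 1, the one with high Xist. With 1 array left out the changes ranged from −0.58 to −0.04 for Serpina1d and from −0.60 to 0.10 for Serpina1b. For Serpina1c they ranged from −0.75 to −0.10 and for Serpina1f from −1 to −0.36. Because Serpina1c and Serpina1d probes match several copies, the first 3 are not separate measurements of 3 genes.

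The 6 hepatocyte marker genes, Serpina1c among them and 5 of 6 well above background on each array, summed to 6.45, 5.50 and 7.83 on the sham arrays and to 5.22, 2.90 and 4.83 on the injured arrays (linear signal, in units of the 75th percentile). Most of this sum is Serpina1c itself. The 5 other genes summed to 3.20, 2.65 and 2.04 on the sham arrays and to 1.27, 0.869 and 1.90 on the injured arrays. These sums were lower without overlap, but gene by gene the 5 did not move together. Apoh read 1.22, 0.55 and −0.63, then −2.36, −1.37 and 0.29, and was higher after injury in the Gpr97-deficient pair. Alb read −1.90, −1.18 and −1.59, then −1.14, −2.74 and −1.79. Apoa2 also overlapped, Ttr was lower without overlap, and Ahsg was above background on no array. The part of these genes in the clade A values was not tested. Serpina3g, an intracellular cathepsin inhibitor of the antichymotrypsin-like group, read −2.65 on wild-type sham 1 and from −1.73 to 0.62 on the other 5 arrays, with no order by surgery (−0.07, SE 0.86, and from −0.97 to 0.61 with 1 array left out). Serpina3j differed by 0.34 (SE 0.18) and Serpina3f by −0.40 (SE 0.42). The remaining clade A genes were near background: Serpina3c, Serpina3k, Serpina4-ps1, Serpina7 and Serpina9 passed it on 1 array each, and Serpina3a, Serpina3b, Serpina3i, Serpina5, Serpina11 and Serpina12 on none.

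Among those 5, Serpina3k read −1.41 on the Gpr97-deficient sham array and −6.67 or lower on the other 5, so that in the Gpr97-deficient pair it was at least 19.4-fold lower after injury. Each arm of that pair is 1 array, and this probe had no mm9 position and an accession that RefSeq did not list. The second Serpina3k probe, whose accession RefSeq gives to Serpina3k, was above background on no array and read −6.99 on the same sham array. Serpina7, the thyroxine-binding globulin, read −4.99 on the Gpr97-deficient injured array, where it passed background. It read −4.50 on wild-type injured array 2 (slide 1), where it was not well above background, and −6.16 or lower elsewhere.

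On chromosome 13 the clade B genes mostly read higher after injury. All 9 of its genes well above background on all 6 arrays were higher after injury, with a median change of 0.75, where 43.9% of all genes above background on all 6 arrays were higher and the median was −0.04. In clade A, 2 of 7 such genes were higher and the median was −0.25, and over clades C to I it was 4 of 8. Over the 26 Serpin genes above background throughout, 16 were higher (19 after normexp correction, where 54.4% of all genes were), and over all 59 with no filter 31 were, with a median of 0.02 against 45.4% and −0.04 for all genes. No set test was run, and neighbouring copies are not independent of each other. Without wild-type sham array 2 the chromosome 13 count was 7 of 9 (median 0.47), without wild-type injured array 1 it was 8 of 9 (median 0.77), and without wild-type injured array 2 it was 8 of 9 (median 0.37).

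**Figure D2:**
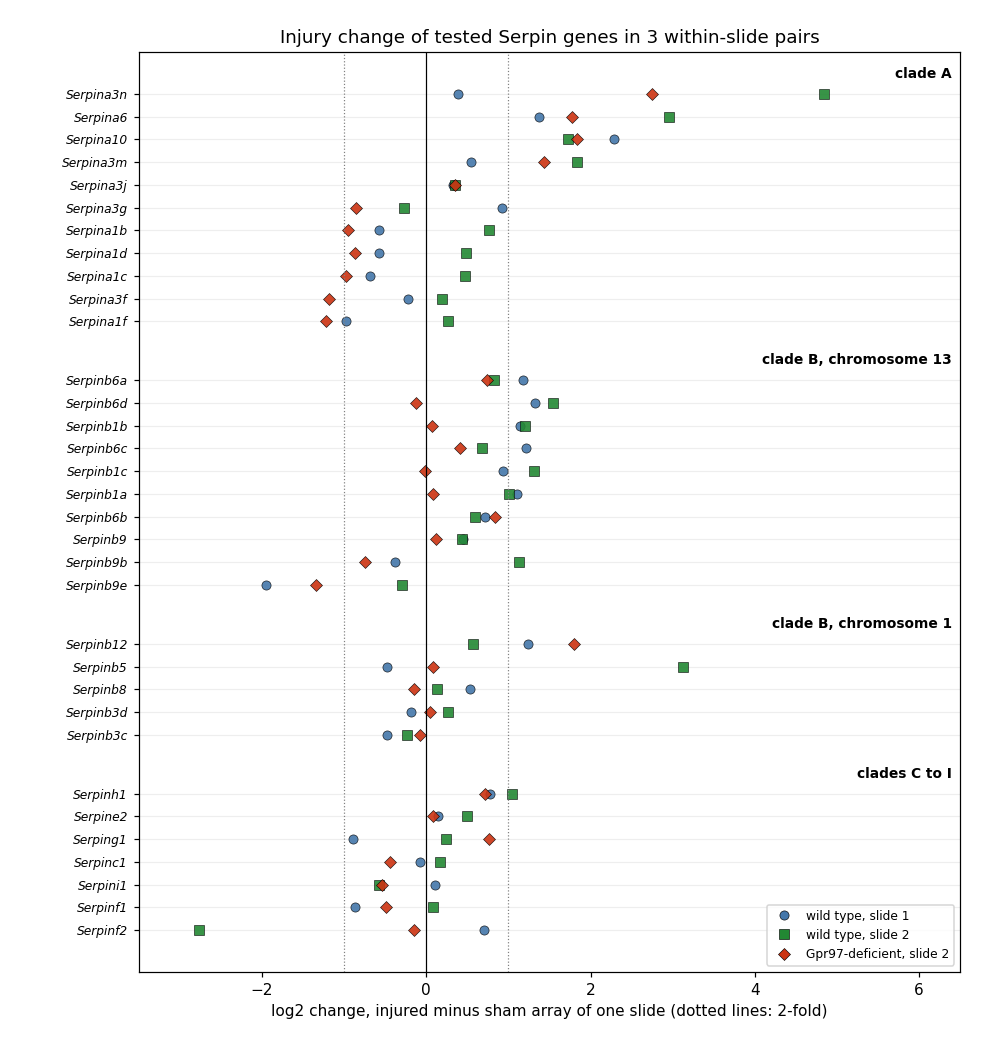
Log2 change (injured minus sham array of one slide) of the tested Serpin genes described here, grouped by clade and chromosome, in the 3 within-slide pairs; each point is 1 array minus 1 array, and dotted lines mark 2-fold. Serpina10 lies beyond 2-fold higher in all 3 pairs; Serpina3f, Serpina3j, Serpina3n, Serpina6, Serpinb3d, Serpinb5, Serpinb9e and Serpinb12 include arrays not well above background; and the Gpr97-deficient points of Serpinb1a, Serpinb1b, Serpinb1c and Serpinb6d lie near 0.

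Serpinb6a and Serpinb6b are intracellular copies related to human SERPINB6. Serpinb6a (mm9 chr13:34010654-34010713) read 0.34, 0.22 and 0.57 on the sham arrays and 1.05, 1.52 and 1.31 on the injured arrays. The groups did not overlap, and the change was 0.92 (SE 0.20; 1.89-fold; adjusted p = 0.269), with 0.74 to 1.18 in the pairs. Serpinb6b (mm9 chr13:33070740-33070799) read −0.07, −0.08 and 0.09 and then 0.51, 0.64 and 0.94, a change of 0.71 (SE 0.15; 1.64-fold; adjusted p = 0.269). Both were higher in wild-type and in Gpr97-deficient pairs alike. Of 2 further Serpinb6a probes with accessions that RefSeq did not list, 1 was above background on no array and the other on wild-type injured array 1 only (−2.13, against −5.62 or lower).

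Serpinb1a inhibits the serine proteases of neutrophil granules. It read 1.04 and 1.05 on the wild-type sham arrays, 2.06 and 2.15 on the wild-type injured arrays, and 1.91 and 1.99 on the Gpr97-deficient sham and injured arrays. In wild-type kidneys the change was 1.06 (SE 0.23; 2.08-fold; unadjusted p = 0.00904, limma adjusted p = 0.769), and the Gpr97-deficient pair differed by 0.08. The Gpr97-deficient sham array lay near the injured arrays, and it exceeded the wild-type sham arrays by 0.87 (SE 0.28; adjusted p = 1). The interaction of genotype and surgery was −0.98 (SE 0.39; unadjusted p = 0.0655, adjusted p = 1), which did not pass.

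Neutrophil markers were measured beside these values. The 8 of them, as linear signals, summed to 3.6 and 2.49 on the wild-type sham arrays, 29.4 and 12 on the wild-type injured arrays, and in Gpr97 deficiency 58.1 after sham surgery and 27.1 after injury; from 4 to 7 of 8 were well above background, and Elane on no array. S100a9 and S100a8 made up most of the sum. S100a9 read 1.38 and 0.84 on the wild-type sham arrays, 4.46 and 3.19 on the wild-type injured arrays, and 5.44 and 4.39 on the Gpr97-deficient sham and injured arrays; Retnlg followed the same order of groups. Mpo, Camp, Ltf and Ngp were not higher on both wild-type injured than on both wild-type sham arrays. Camp, Ltf and Ngp were highest on the Gpr97-deficient sham array. Their part in the Serpinb1a difference was not tested, and in whole tissue more cells of a type and more RNA per cell cannot be told apart. Serpinb1c read −2.13, −2.58 and −1.55 on the sham and −1.28, −1.19 and −1.56 on the injured arrays, and Serpinb1b −2.57, −3.80 and −2.99, then −2.59, −1.43 and −2.91. In the pair differences both resembled Serpinb1a, being higher in the wild-type pairs (0.94 and 1.31, and 1.14 and 1.20) with −0.01 and 0.07 in the Gpr97-deficient pair. For Serpinb1b, however, the Gpr97-deficient sham array lay between the wild-type sham arrays, and wild-type injured array 1 (−2.59) lay just below wild-type sham array 1 (−2.57). A dimmer Serpinb1c probe, also above background on all 6 arrays, gave 0.56, 0.32 and −0.10 in the pairs (0.44 in wild-type kidneys, SE 1).

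Serpinb9 protects cells from granzyme B. Its brighter probe read −1.50, −1.64 and −1.26 on the sham and −1.20, −1.05 and −1.14 on the injured arrays, a change of 0.34 (SE 0.17; adjusted p = 0.482). Its dimmer probe differed by 0.80 (SE 0.20; over 29910 probes adjusted p = 0.309). Serpinb9e, a copy in the same cluster, differed the other way: it read −4.29, −4.71 and −3.78 after sham surgery and −4.99, −6.25 and −5.12 after injury, lower without overlap (−1.20, SE 0.37, adjusted p = 0.347). Only 3 of its 6 arrays were well above background, and with normexp background correction the sign turned to 0.47.

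Serpinb6c and Serpinb6d differed by 0.77 (SE 0.46) and 0.92 (SE 1.01) and Serpinb9b by 0.01 (SE 0.53). Serpinb6d read −2.38 and −1.04 on the 2 arrays of slide 1 and from −5.09 to −3.55 on the 4 of slide 2, so both arrays of slide 1 were above all of slide 2. On chromosome 1, Serpinb8 differed by 0.17 (SE 0.22) and Serpinb3c by −0.26 (SE 0.16), and both were above background on all 6 arrays. A dimmer Serpinb8 probe, also above background on all 6 arrays, differed by −0.20 (SE 0.17). Serpinb3d, Serpinb5 (maspin) and Serpinb12 were so on 4, 2 and 2 arrays, and for Serpinb12 the difference was at least 1.1-fold higher after injury. Serpinb11 passed background on 1 array, and Serpinb2 (plasminogen activator inhibitor 2), Serpinb3a, Serpinb3b, Serpinb7, Serpinb9c, Serpinb9d, Serpinb9f, Serpinb9g, Serpinb10 and Serpinb13 on none.

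Serpinh1, the chaperone of collagen folding also called HSP47, read 2.69 and 2.45 on the wild-type sham arrays, 2.38 on the Gpr97-deficient sham array, and 3.50, 3.47 and 3.11 on the injured arrays in the same order. The groups did not overlap, and the change was 0.85 (SE 0.16; 1.80-fold; adjusted p = 0.262), with 0.78, 1.05 and 0.72 in the pairs. Its clients and their modifying enzymes, 15 genes chosen for their role, mostly read higher too: 14 of 15 read higher in injured kidneys, their median being 1 against a median of −0.06 over all tested genes, 8 had an unadjusted p under 0.05, all higher (5.56% of all genes), and 0 passed the adjusted threshold. Col3a1, a fibrillar collagen, had the largest change of the list, at 0.49, 0.43 and 0.14 on the sham arrays and 2.68, 2.54 and 2.40 on the injured arrays (2.19, SE 0.15, adjusted p = 0.156). Fibroblast markers, which include Col1a1 and Col3a1, summed to 18, 11.3 and 10.9 on the sham and 19.7, 14 and 20.6 on the injured arrays. All 4 were above background on each array. The sums overlapped, and gene by gene the 4 did not move together. Col1a1 and Col3a1, both among the 15, were higher after injury without overlap. Dcn, the brightest of the 4 on each sham array, read 3.84, 3.1 and 3.1, then 2.81, 2.19 and 3.31. It was lower after injury in both wild-type pairs and higher in the Gpr97-deficient pair. Pdgfra read −0.03, −1.19 and −1.28, then −0.73, 0.09 and 0.28, higher in each pair but with overlap. The part of these markers in the Serpinh1 difference was not tested.

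Antithrombin is the product of Serpinc1 and inhibits thrombin and factor Xa, and its 2 probes differed in the size of the change. The brighter one (mm9 chr1:162925534-162927487, a span longer than the probe) read −1.68, −1.65 and −1.53 after sham surgery and −1.48, −1.76 and −1.97 after injury, a change of −0.12 (SE 0.19) that was 0.05 without either Gpr97-deficient array. The other (mm9 chr1:162932565-162932624) read −1.32, −1.14 and −1.52 and then −2.44, −2.72 and −2.67, lower in every pair, from −1.41 to −1.15 (−1.29, SE 0.17, limma over 29910 probes unadjusted p = 0.000577, adjusted p = 0.257). Both were well above background on all 6 arrays. Its partner in thrombin control, Serpind1 (heparin cofactor II), passed background on wild-type injured array 2 alone.

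**Figure D3:**
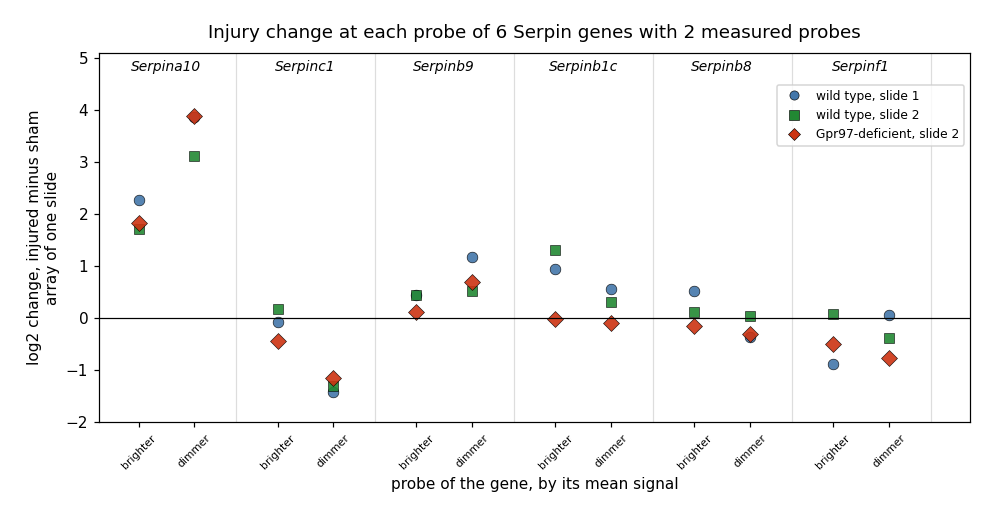
Log2 change (injured minus sham array of one slide) at each probe of 6 Serpin genes with 2 probes well above background on at least 2 arrays, the brighter probe first; points are the 3 within-slide pairs. The probes of Serpina10 lie on the same side of 0, and the dimmer Serpinc1 probe lies between −1.41 and −1.15.

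The other plasma regulators overlapped between sham and injured arrays. Serpinf2, alpha-2-antiplasmin, read 2.87 and 4.93 on the 2 wild-type sham arrays and 3.58 and 2.16 on wild-type injured arrays 2 and 1, so the wild-type pairs opposed each other (0.70 on slide 1 and −2.77 on slide 2). Serpinf1, the antiangiogenic protein PEDF, differed by −0.42 (SE 0.39), Serpini1 (neuroserpin, a tPA inhibitor) by −0.33 (SE 0.23), and Serpine2 (protease nexin 1) by 0.24 (SE 0.20). Serping1, the C1 inhibitor of complement, differed by 0.04 (SE 0.34) over both genotypes (from −0.32 to 0.33 with 1 array left out) and by −0.89, 0.24 and 0.76 in the pairs. Serpine3 and Serpini2 were above background on no array.

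Proteases and cofactors that serpins act on were taken from lists chosen for their role. Of 33 tested proteases 24 were lower and 9 higher after injury (median −0.27, against −0.06 over all tested genes), 4 higher and 3 lower at an unadjusted p under 0.05, where 5.56% and 6.72% of all genes were, and 0 after adjustment. Plat, the tissue plasminogen activator, read 2.13, 2.36 and 3 on the sham arrays and 3.39, 3.18 and 3.53 on the injured arrays (0.87, SE 0.19, adjusted p = 0.28), whereas Plau, the urokinase, differed by −0.07 (SE 0.23). F2, which encodes prothrombin, was at −3.25, −2.15 and −2.95 and then at −4.18, −5.42 and −5.01, lower without overlap (−2.09, SE 0.45, adjusted p = 0.273), with wild-type injured array 2 (−5.42) not well above background. Factor XI (F11) differed by −1.22 (SE 0.33) with 3 arrays above background, and Casp8, an initiator caspase, by 0.80 (SE 0.23).

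Of 17 cofactors and receptors, 13 were higher (median 0.87), with 9 higher and 3 lower at an unadjusted p under 0.05 (5.56% and 6.72% of all genes) and 0 after adjustment. S100a10 and Anxa2, which together form a cell-surface assembly site for plasminogen and tPA, differed by 1.87 (SE 0.30) and 1.80 (SE 0.45). Plaur, the urokinase receptor, was chosen for mention after its values were seen: it read −0.69, −0.58 and −0.64 on the sham and 0.67, 3 and 1.67 on the injured arrays. All injured arrays were above all sham arrays. The syndecan Sdc1 differed by 1.35 (SE 0.28). Lrp2, megalin, which takes up filtered proteins and protease complexes in the proximal tubule, was lower in every pair, from −1.63 to −0.88 (−1.30, SE 0.27, adjusted p = 0.269); the sum of the 7 proximal tubule markers, of which it is 1, was 882, 1240 and 930 on the sham and 606, 575 and 720 on the injured arrays.

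**Figure D4:**
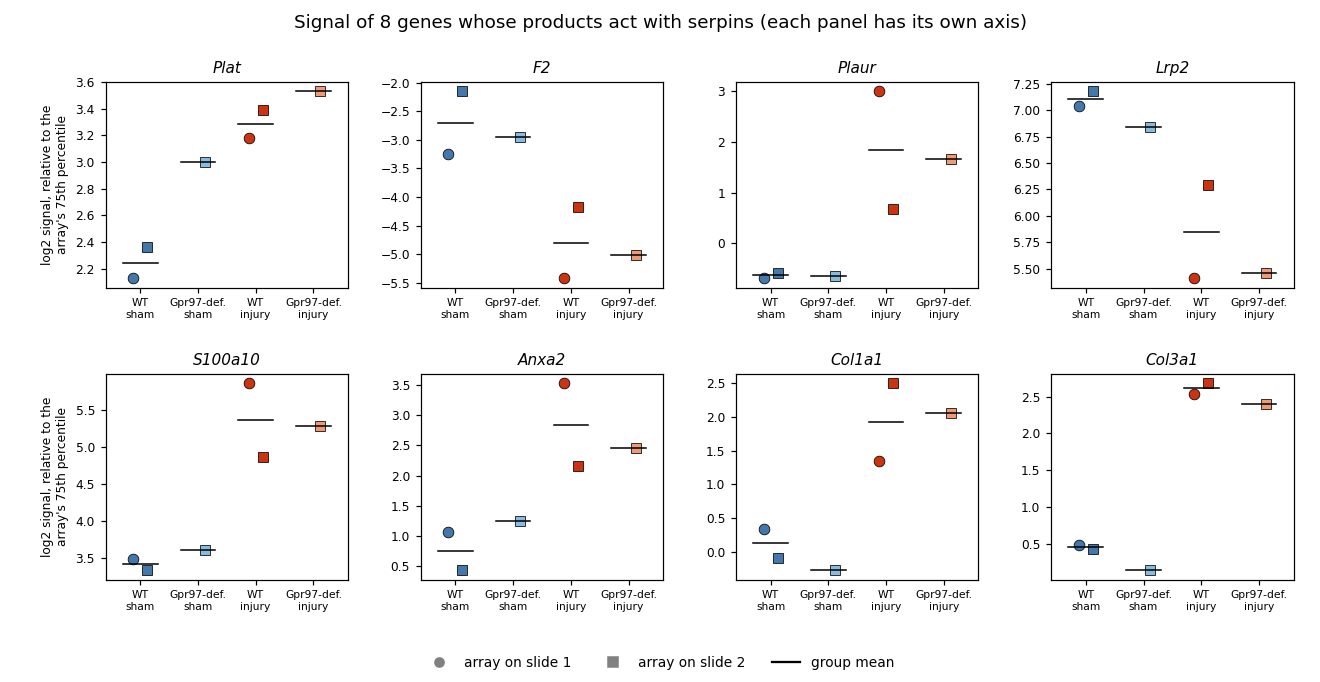
Log2 signal, relative to the array's 75th percentile, of 8 genes whose products act with serpins, by group; circles are arrays on slide 1, squares arrays on slide 2, lines group means. Plat, Plaur, S100a10, Anxa2, Col1a1 and Col3a1 are higher and F2 and Lrp2 lower on all 3 injured than on all 3 sham arrays.

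In wild-type kidneys alone, 2 injured against 2 sham arrays, 8 Serpin genes had an unadjusted p under 0.05, all higher (among them Serpina10, Serpina6, Serpinb1a, Serpinb1c, Serpinb6a, Serpinb6b and Serpinh1), where 6.39% of all genes did (3.22% higher and 3.17% lower), and 0 passed limma's test after adjustment (adjusted p from 0.769 to 0.774). The count was lower when wild-type sham array 2 or wild-type injured array 2 was left out, and it was 2 after normexp correction (2.1% of all genes). Without wild-type injured array 1, 15 of the 26 Serpin genes above background throughout were higher (median 0.51), against 18 (median 0.35) with it. Over all such genes 45.8% and 45% were higher. That array, the one with high Xist, is also the injured arm of the slide 2 pair. Past 2-fold, 9 Serpin genes were higher and 1 lower in the slide 1 pair, where 6.15% and 9.75% of all genes were, and 12 higher and 1 lower in the slide 2 pair, where 5.86% and 4.64% were. With both arrays of the pair well above background the counts were 7 and 0 of 28 on slide 1 (4.93% and 7.39% of all such genes) and 9 and 1 of 29 on slide 2 (4.31% and 3.53%). Serpina10 was among the members past 2-fold higher in all 3 pairs, where 1.16% of all genes were. For Serpina6 the log2 differences of the pairs were also past that size, but its sham arrays were not well above background: it was at least 2.59-fold higher in the wild-type pair on slide 2 and at least 1.38-fold in the Gpr97-deficient pair, and neither array measured it in the slide 1 pair.

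In the Gpr97-deficient pair, 1 array against 1 and therefore with no test, 6 Serpin genes were past 2-fold higher (among them Serpina10, Serpina3m, Serpina3n, Serpina6 and Serpinb12) and 3 past 2-fold lower (Serpina1f, Serpina3f and Serpinb9e), where 4.56% and 5.32% of all genes were. The sham array was not well above background for Serpina6 and Serpinb12, which were at least 1.38-fold and 1.33-fold higher, so that 4 of 30 genes measured on both arrays were past 2-fold higher and 3 lower (3.65% and 4.05% of all such genes). Of the 9 chromosome 13 clade B genes above background throughout, 6 were higher in this pair with a median of 0.08. Of all genes above background throughout, 44.6% were higher in this pair and the median was −0.04. The wild-type pairs had 8 of 9 higher (median 1.1) on slide 1 and 9 of 9 (median 1.01) on slide 2. For all genes above background throughout these values were 43.6% (median −0.07) and 48.8% (median −0.01). The interaction of genotype and surgery, which tests that difference gene by gene, was below an unadjusted p of 0.05 for 0 Serpin genes and for 1.48% of all genes (0.622% higher and 0.862% lower), and for 0 genes after adjustment by limma. The Serpin count also moved when 1 wild-type array was left out. The median interaction of the tested Serpin genes then ranged from −0.48 to −0.17, where the median of all tested genes on all 6 arrays was −0.01. The Gpr97-deficient sham array enters each of these differences. It had the highest sum of several marker lists, among them neutrophil, red blood cell (81.7, others 2.57 to 42.5), macrophage (31.3, others 9.79 to 24.4) and podocyte (2.11, others 1.46 to 1.67). Not every gene of a list followed its sum, and their part in these differences was not tested.

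Genotype over both surgeries gave 0 Serpin genes at an unadjusted p under 0.05, where 3.26% of all genes had one (1.38% higher and 1.88% lower), and 0 genes after adjustment by limma. With 1 wild-type array left out the Serpin count was 2 without sham array 1 (2.45% of all genes) and 4 without sham array 2 (5.75%). It was 3 without injured array 1 (6.52%) and 0 without injured array 2 (3.18%). The dimmer Serpina10 probe, not used in these counts, differed by −0.95 (SE 0.23, limma over 29910 probes unadjusted p = 0.00794, adjusted p = 0.989). It was above background on no sham array, and the brighter probe differed by −0.27 (SE 0.22). Among the probes used, Serpine2 came closest, at −1.89 and −1.81 on the Gpr97-deficient arrays and from −2.79 to −2.15 on the wild-type arrays (0.53, SE 0.21, unadjusted p = 0.0539, adjusted p = 0.993). Serpine2 was the 1 tested member higher on both deficient than on all 4 wild-type arrays (4.33% of all genes were). Serpinb3d was the 1 lower on both (6.52% of all genes were), at least 1.99-fold, as neither deficient array was well above background. Both deficient arrays are on slide 2, and with slide in the fit the Serpinb3d difference went from −1.11 to −0.46 and the Serpine2 difference to 0.69. After injury, 0 Serpin genes differed between genotypes at an unadjusted p under 0.05 (1.43% of all genes, 0.704% higher and 0.729% lower), and after sham surgery Serpinb1a did, higher in the deficient array (2.14% of all genes, 1.21% higher and 0.933% lower). Both counts moved when 1 array was left out. The median difference of the tested Serpin genes then ranged from −0.25 to −0.10 after injury and from 0.11 to 0.36 after sham surgery. Over all tested genes and all 6 arrays it was −0.01 in each.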

How the data were processed

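Kidney RNA was measured on 6 one-colour Agilent arrays. All tests used the intensity values (processed signal) of the deposited scanner files; per the file headers, slide 1 was read with Feature Extraction version 10.7.1.1 and slide 2 with version 10.7.3.1, and probe positions are in mm9. The authors' deposited series values, on a log2 scale of unstated normalization (medians 6.07 to 6.09), served as an alternative. Flags for background, saturation and outliers were other values of the deposited files.

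Signals were log2-transformed, the array's 75th percentile over non-control spots (43379 of 45018) was subtracted, outlier spots were left out and replicate spots averaged. RefSeq genes named 27668 of the 41174 probes by accession and 6060 by symbol; 7446 kept the file's name. A gene took its brightest probe. Genes well above background on at least 2 arrays were tested two-sided with limma 3.58.1 in R 4.3.3 (data.table version 1.17.8), with Benjamini-Hochberg adjustment over all of them. Injury and genotype over all arrays came from an additive fit (3 residual degrees of freedom), and single-group comparisons from group means (2 residual degrees of freedom), with the spread of a lone Gpr97-deficient array taken from the wild-type groups. Where a group had no array well above background, the fold is a lower bound: for each of its arrays the probe's own signal or, if higher, the dimmest well-above-background signal was used. Precision is limited by the number of arrays. The fits were tested on simulated data.

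The members and gene lists were chosen with earlier results of these data known. The text names Serpin genes at an unadjusted p under 0.05, those past 2-fold in all 3 pairs, the 2 highest and 2 most changed of each clade and a fixed set of representatives, and, of each partner list, up to 4 genes with the largest absolute t; other members are named to account for the family, and 1 member's values are not reported here, although counts over the family include it. Alternatives were normexp (offset 50), quantile normalization, the deposited values, no filter or a stricter one, the mean of probes, a trended robust prior, slide as a block and leaving out each array.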

Additional observations from a re-analysis of the deposited data

Results flagged for a closer look

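For 3 tested Serpin genes the Gpr97-deficient pair had the opposite sign to both wild-type pairs, however small its difference. This held for 15.6% of all genes with values on every array. Serpinb1c was higher after injury in both wild-type pairs (0.94 and 1.31) and −0.01 in the Gpr97-deficient pair (interaction −1.13, SE 0.48, limma adjusted p = 1). Serpinb6d gave 1.33 and 1.54 against −0.12 (interaction −1.55, SE 2.26, adjusted p = 1), and Serpinb8 gave 0.53 and 0.13 against −0.15 (interaction −0.48, SE 0.50, adjusted p = 1). Serpinb1c and Serpinb8 each have a dimmer probe that was also well above background on all 6 arrays. For Serpinb1c it gave 0.56 and 0.32 against −0.10 (interaction −0.54, SE 1.73). For Serpinb8 it gave −0.35 and 0.05 against −0.31 (interaction −0.17, SE 0.45), so there the wild-type pairs themselves differed in sign. The Gpr97-deficient pair is 1 array against 1, and none of these interactions passed the threshold.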

How the results depend on the processing

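The count of Serpin genes past the adjusted threshold was 0 in each of the 6 limma comparisons under every alternative run; over all genes the injury count went from 0 to 1 with quantile normalization, the deposited values or slide as a block, and to 3 with the trended robust prior. At an unadjusted p under 0.05, injury over both genotypes went from 9 Serpin genes to 5 with normexp, where the share of all genes went from 12.3% to 4.58%. With 1 array left out it gave from 8 to 12 Serpin genes and from 6.39% to 17.4% of all genes. Injury in wild-type kidneys went from 8 to 2 with normexp (from 6.39% to 2.1% of all genes). With 1 array left out the median of the tested Serpin genes there ranged from 0.14 to 0.61. Genotype over both surgeries went from 0 to 1 with quantile normalization, the deposited values, the stricter filter or the mean of probes (2.84% to 3.39% of all genes). It went to 2 with slide as a block (4.67%) and from 0 to 4 with 1 wild-type array left out (2.45% to 6.52%). Genotype after injury went from 0 to 1 with slide as a block, where the share of all genes went from 1.43% to 3.35%. After sham surgery it went from 1 to 0 with normexp and to 3 with slide as a block. The share of all genes there went from 2.14% to 0.27% and to 3.99%. Both counts also moved with 1 array left out. The interaction went from 0 to 1 with no filter, the trended robust prior or slide as a block, where the share of all genes went from 1.48% to 1.25%, 1.25% and 2.85%. It also moved with 1 array left out. In the Gpr97-deficient pair the 9 genes past 2-fold became 4 with normexp, 14 with no filter and 5 with the stricter filter.

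Of the single-gene values, 504 kept their direction and 17 did not. With normexp, which moved the median of all genes from −0.06 to 0.19, injury values turned to 0.47 for Serpinb9e, 0.17 for Serpinc1, 0.16 for Serpinf1, 0.10 for Serpina3g and −0.09 for Serping1, and the Serpine2 genotype value went to 0. With 1 array left out, the injury range was −0.60 to 0.10 for Serpina1b, −0.97 to 0.61 for Serpina3g, −0.24 to 0.05 for Serpinc1 and −0.32 to 0.33 for Serping1. The cause was not tested. No paired analysis by replicate number was possible because the labels give the groups no shared numbers. The arrays were compared within slides and with slide as a block instead. Slide as a block gave 13 Serpin genes for injury over both genotypes (17.7% of all genes) and 12 in wild-type kidneys (10.1% of all genes). Signals near background limit Serpina3n, Serpina6, Serpinb5, Serpinb9e and Serpinb12.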
